A study of Homo sapiens with 6 samples.

Results

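The autophagy machinery examined here is a list of 41 human genes that build the autophagosome or tether cargo to it. The list was drawn up by function (the core *ATG* genes, the kinase and lipid-transfer complexes, the *ATG8* family, and cargo and mitophagy receptors). The rule used no measured value, but earlier results of these data were known when the list was chosen. Its members were located in the table of raw counts by matching Ensembl identifiers to GENCODE symbols. All 41 were among the 67060 genes listed, and 40 passed the filter on low counts. The other member, *ATG16L1*, was listed at 0 in all 6 libraries.

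The cells were SH-SY5Y, an established human neuroblastoma line with catecholaminergic features. One group was infected with Ad CMV 3xFlag-*Esrrg*, an adenovirus carrying the coding sequence of mouse *Esrrg* with a 3xFlag tag behind the CMV promoter, and the control group with Ad CMV GFP. *Esrrg* encodes ERRγ, an orphan nuclear receptor that activates genes of mitochondrial metabolism. RNA was taken 24 h after infection. All 6 libraries therefore come from infected cells of 1 line at 1 time, with no uninfected cells among them. The groups are called GFP (replicates 1, 3 and 4) and Flag-ERRg (replicates 2, 3 and 4). Nothing in the labels says that replicates came from separate cultures, so p-values measure the spread between these libraries, which may be technical.

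Macroautophagy encloses cytoplasm in a double membrane and delivers it to the lysosome. The ULK1 complex starts the process, a class III phosphatidylinositol 3-kinase marks the site with its lipid, and ATG9A vesicles with ATG2 lipid-transfer proteins enlarge the membrane. Ubiquitin-like conjugation then attaches ATG8 proteins (the LC3 and GABARAP families) to the membrane, where they hold cargo receptors. Neurons rely on the pathway because they cannot dilute damaged proteins and mitochondria by division.

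Each GFP library had 24969759 to 29700980 reads on genes and each Flag-ERRg library 26513620 to 40859666. The no-feature share, that is reads the authors' counting placed in no gene, was 51.3% to 52.2% in GFP libraries, but 46.6%, 31.6% and 29.5% in Flag-ERRg replicates 2, 3 and 4. Flag-ERRg replicate 2 thus stood between the GFP libraries and the other Flag-ERRg libraries. Reads that were ambiguous between genes made up 4.55% to 4.87% in GFP libraries and 5.69% to 9.84% in Flag-ERRg libraries. Those not aligned uniquely made up 7.16% to 7.41% in GFP libraries and 9.33%, 12.7% and 13.0% in Flag-ERRg replicates 2, 3 and 4. The part of these shares in the results below was not tested beyond the covariate fit and the left-out libraries given with them. Values per gene are counts per 1000000 reads on genes (CPM) scaled by edgeR's TMM factors. They are given in the order GFP 1, 3, 4 and Flag-ERRg 2, 3, 4. A gene was called higher or lower in Flag-ERRg at a Benjamini-Hochberg adjusted p below 0.05 over 24500 tested genes (edgeR quasi-likelihood test, two-sided) and a fold change of at least 1.5. For any single gene, an exact permutation of 3 against 3 libraries cannot reach a p below 0.1.

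*ESRRG* itself checked the labels. It stood at 83.5, 90.3 and 86.8 CPM in the GFP libraries and at 569, 771 and 777 CPM in the Flag-ERRg libraries, a log2 fold change of 3.02 (SE 0.14, adjusted p = 6.3e-07). Because the viral insert is of mouse sequence, this value covers those of its reads that aligned to the human gene. Among 12 noradrenergic neuroblastoma markers, *PHOX2A*, *HAND2*, *GATA2*, *GATA3* and *ISL1* were counted in all libraries, and *TH* and *CHGA* were listed at 0 in all. The summed level of the list was 898 to 969 CPM in GFP and 675 to 909 CPM in Flag-ERRg libraries, with 2 members called higher (*PHOX2A* and *GAP43*) and 3 lower (*DBH*, *GATA2* and *STMN2*). For 10 mesenchymal markers the sum was 3587 to 3617 CPM in GFP and 4435 to 4593 CPM in Flag-ERRg libraries, with 2 called higher (*FOSL1* and *FOSL2*) and 1 lower (*YAP1*). Most of that sum is *FN1*, with means of 1954 and 2687 CPM, which was not called (log2 fold change 0.46), so the sum mainly describes this gene. The part of these marker shifts in the results was not tested.

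Of the 40 autophagy genes tested, 9 were called higher and 5 lower with Flag-ERRg (22.5% and 12.5%). The genes that rose were *ATG101*, *GABARAP*, *ATG4D*, *GABARAPL1*, *WIPI1*, *BNIP3*, *MAP1LC3A*, *FUNDC1* and *AMBRA1*, by 0.64 to 1.40 on the log2 scale. Those that fell were *BNIP3L*, *ATG2B*, *RB1CC1*, *ULK2* and *NBR1*. Over the 13746 protein-coding genes tested, 25.9% were called higher and 12.4% lower, and over all 24500 tested genes 17.3% and 16.8%. The shares among the members were close to those among protein-coding genes, so these counts alone set the list apart in neither direction. Without the fold cutoff, 18 members were higher and 7 lower at adjusted p below 0.05, against 60.0% of protein-coding genes in either direction. The values of the groups did not overlap for 17 members that were higher and 12 that were lower, against 70.3% of protein-coding genes. The median log2 fold change was 0.18 over the members, 0.12 over protein-coding genes and -0.10 over all genes.

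**Figure D1:**
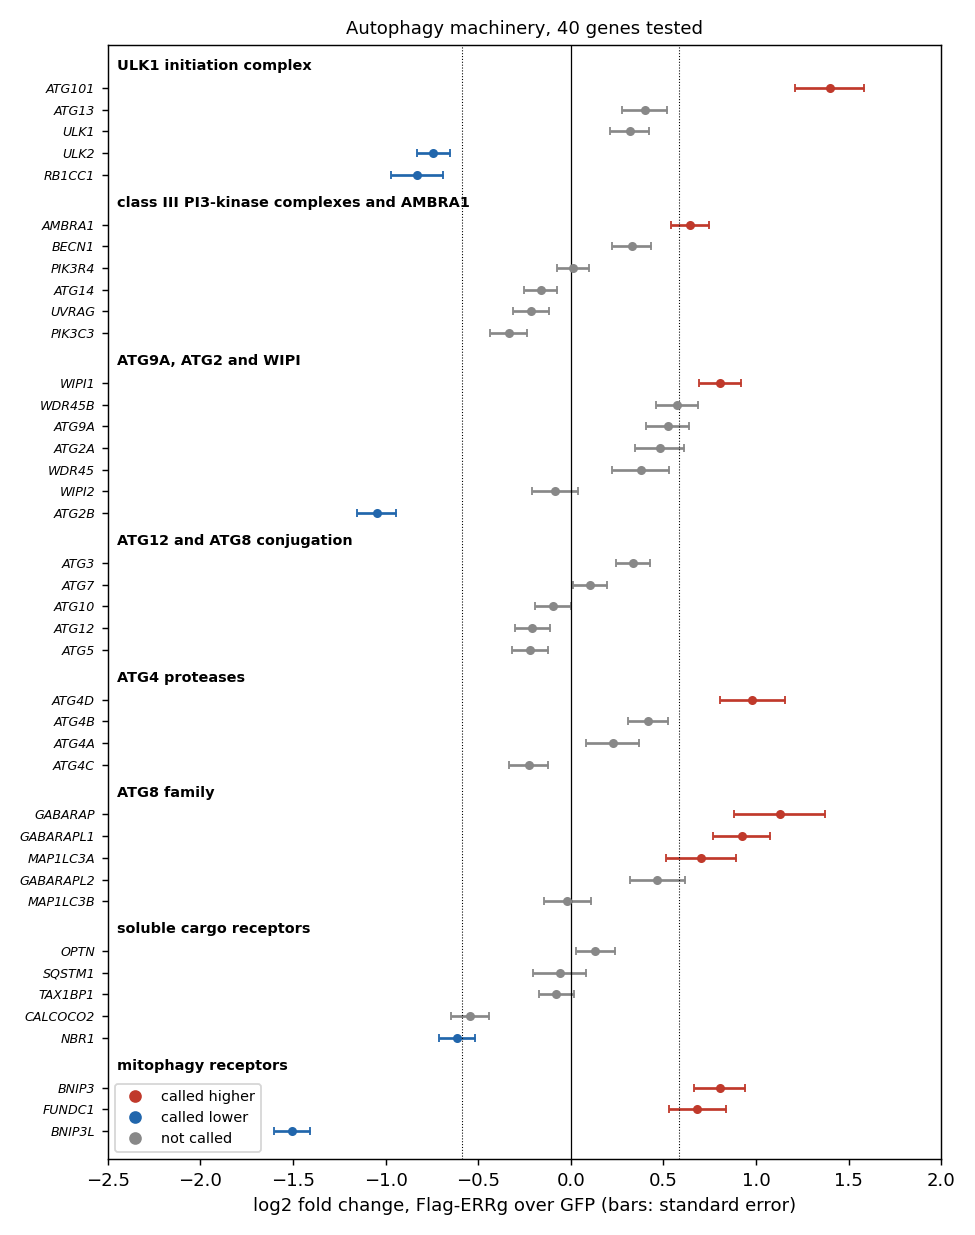
Log2 fold change (Flag-ERRg over GFP, horizontal axis) of the 40 tested autophagy genes, ordered within 8 functional groups. Bars are standard errors and dotted lines mark 1.5-fold. Within most groups, red points (called higher) or blue points (called lower) stand among grey ones (not called), and the range runs from -1.51 for *BNIP3L* to 1.40 for *ATG101*.

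Scaling and libraries moved these counts. TMM factors were 1.11 to 1.13 in GFP libraries and 1.01, 0.849 and 0.835 in Flag-ERRg replicates 2, 3 and 4. When library size alone set the scale, the median over all genes shifted from -0.10 to -0.42, that of the members moved to -0.15, and 4 members were called higher and 7 lower, against 13.6% and 25.8% of protein-coding genes. *ATG101*, *ATG4D*, *GABARAP* and *GABARAPL1* were the 4, and *PIK3C3* and *CALCOCO2* joined the genes called lower. Flag-ERRg replicate 2 had the lowest value of its group in 9 of the 9 members called higher, and in 23 of the 23 members with a log2 fold change above 0. Among the 17 members below 0, it was the nearest of its group to GFP in 5 and the lowest in 8, and among the 5 called lower it was the nearest to GFP in 2. Without that library 16 members were called higher and 4 lower and their median was 0.39, while the share of protein-coding genes called higher also went up, to 34.4%, and their median to 0.27. *ATG13*, *ATG2A*, *ATG4B*, *ATG9A*, *WDR45*, *WDR45B* and *GABARAPL2* then joined the genes called higher. With replicate 2 as the only Flag-ERRg library, the median of the members was -0.019, against 0.058 over protein-coding genes. With the no-feature share as a covariate, *ATG101* alone was called higher, while *ULK2*, *ATG2B*, *NBR1*, *CALCOCO2* and *BNIP3L* were called lower. In that fit 9.48% of protein-coding genes were called higher and 6.93% lower. The share did not overlap between the groups (51.3% to 52.2% in GFP, 29.5% to 46.6% in Flag-ERRg libraries). The fit can therefore hardly tell the share from the virus, and a call lost in it, here or below, points to neither.

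The promoters of the members were searched for 2 known motifs in RefSeq's table (GRCh38.p14), which gave a sequence from 250 bases before to 50 bases after the start for 35 of the 41 genes. Without a sequence were *UVRAG*, *WDR45B* and the called genes *ATG4D*, *BNIP3L*, *MAP1LC3A* and *RB1CC1*, so the search does not cover these. The response element of the ERR receptors, TCAAGGTCA, was in none of the 35 on either strand, and 0.353% of all 35116 promoters held it. Its core, AAGGTCA, was in 1 member, *SQSTM1*, against 3.92% of all promoters. The core of the element bound by TFEB, a transcription factor of lysosomal and autophagy genes, TCACGTGA, was in 1 member, *ATG3*, after the start, against 0.980%. The E-box CACGTG, which lies within that element, was in *ATG3*, *ATG14* and *BNIP3*, against 7.26%. A match is a description of letters only. The 250 bases before the RefSeq start are given below for the 3 members with a match there, with the matched letters in capitals (TGACCTT in *SQSTM1* is AAGGTCA on the other strand), and for *ATG101*, the member with the largest rise, which held none of the motifs. They lie at chr10:131981924-131982173 (*BNIP3*, minus strand), chr14:55411831-55412080 (*ATG14*, minus strand), chr5:179806143-179806392 (*SQSTM1*, plus strand) and chr12:52069728-52069977 (*ATG101*, plus strand). GENCODE places the start of *ATG101* upstream of this RefSeq start, so the stretch printed for it lies within the gene as GENCODE annotates it, as does the end of the *BNIP3* stretch nearest the start.
BNIP3: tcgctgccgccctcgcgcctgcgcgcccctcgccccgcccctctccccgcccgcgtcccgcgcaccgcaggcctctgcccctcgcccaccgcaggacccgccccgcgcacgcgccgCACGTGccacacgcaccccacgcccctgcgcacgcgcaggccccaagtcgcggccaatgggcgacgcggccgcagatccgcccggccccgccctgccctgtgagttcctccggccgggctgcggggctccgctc
ATG14: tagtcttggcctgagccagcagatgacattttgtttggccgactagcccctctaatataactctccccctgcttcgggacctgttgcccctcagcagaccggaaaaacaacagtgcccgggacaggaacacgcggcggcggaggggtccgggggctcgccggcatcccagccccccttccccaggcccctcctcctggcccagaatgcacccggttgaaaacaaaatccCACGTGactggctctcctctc
SQSTM1: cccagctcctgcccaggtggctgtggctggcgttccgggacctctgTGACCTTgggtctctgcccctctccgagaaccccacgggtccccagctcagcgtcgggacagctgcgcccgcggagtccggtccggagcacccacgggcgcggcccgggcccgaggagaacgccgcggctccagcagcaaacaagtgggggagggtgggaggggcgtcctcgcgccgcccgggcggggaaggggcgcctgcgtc
ATG101: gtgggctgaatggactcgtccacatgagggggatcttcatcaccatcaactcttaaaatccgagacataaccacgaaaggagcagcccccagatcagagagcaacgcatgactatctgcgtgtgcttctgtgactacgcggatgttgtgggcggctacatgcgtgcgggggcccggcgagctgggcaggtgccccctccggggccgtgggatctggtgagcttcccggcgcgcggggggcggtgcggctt
Of these 4 genes, *BNIP3* and *ATG101* were called higher, and *ATG14* and *SQSTM1* were not called.

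Within the ULK1 initiation complex the members moved in opposite directions, with 1 of 5 called higher and 2 lower. Counts in this group and those below rest on 3 to 7 genes each and were not tested as groups. Over protein-coding genes 25.9% were called higher and 12.4% lower. *ATG101*, which binds and stabilizes ATG13, had the largest rise of the 40 members, at 8.25, 9.94 and 8.51 CPM in GFP and 16.2, 26.4 and 27.7 CPM in Flag-ERRg libraries. The gene lies at chr12:52069246-52077495 on the plus strand (GRCh38, GENCODE 44). The lowest Flag-ERRg value lay above the highest GFP value. The difference was 2.64-fold in the edgeR fit, or 1.40 on the log2 scale (SE 0.19, adjusted p = 0.00024). It was called in all 16 planned fits judged at the reported cutoff, with log2 values from 0.63 under the covariate to 1.71 without Flag-ERRg replicate 2. Its exons overlap an unnamed antisense gene over 19.2% of their bases. *RB1CC1*, the large scaffold also known as FIP200, stood at 92.1, 99.9 and 80.6 CPM in GFP and 62.3, 47.1 and 44.1 CPM in Flag-ERRg libraries. That fall, -0.83 on the log2 scale (SE 0.14, adjusted p = 0.00078), was not called with the covariate (-0.40). *ULK2*, one of the paired kinases of the complex, had 49.7, 48.4 and 54.1 CPM in GFP against 29.8, 30.97 and 30.2 CPM in Flag-ERRg libraries. Its Flag-ERRg values differed little among themselves (SD 0.573, n = 3), and its log2 fold change was -0.74 (SE 0.09, adjusted p = 0.00014). The other kinase, *ULK1*, had 29.4, 30.8 and 28.5 CPM in GFP and 34.3, 34.6 and 41.9 CPM in Flag-ERRg libraries. At 0.32 on the log2 scale (adjusted p = 0.028) it stayed under 1.5-fold, and its sign turned to -0.23 after correction for GC content and length and to -0.0049 with library size only. *ATG13*, the adaptor between the kinases and the scaffold, had a log2 fold change of 0.40 (SE 0.12, adjusted p = 0.020) and was under the fold cutoff too.

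Genes of the class III phosphatidylinositol 3-kinase complexes had 1 of 6 members called, and 3 of 6 at adjusted p below 0.05. *AMBRA1*, a regulator that binds Beclin 1 and the ULK1 complex, stood at 55.6, 62.1 and 61.4 CPM in GFP and 83.5, 94.1 and 102 CPM in Flag-ERRg libraries. The groups did not overlap, and the log2 fold change was 0.64 (SE 0.10, adjusted p = 0.00062). The call was lost without Flag-ERRg replicate 4 (0.58, just under 1.5-fold). It was lost too after correction for GC content and length (0.24), with protein-coding genes only (0.51), with library size only (0.32) and with the covariate (0.39). *PIK3C3*, the lipid kinase VPS34, was at 124 to 134 CPM in GFP and 93.8 to 112 CPM in Flag-ERRg libraries, a log2 fold change of -0.34 (SE 0.10, adjusted p = 0.017) that was under the cutoff. *BECN1*, the Beclin 1 subunit, had a log2 fold change of 0.33 (SE 0.10, adjusted p = 0.024). *PIK3R4*, the regulatory subunit, was the closest of the members to 0, with 48.5 to 49.1 CPM in GFP and 48.2 to 51.2 CPM in Flag-ERRg libraries. *ATG14*, which directs the kinase to autophagosome formation, and *UVRAG*, found in the endosomal complex, had log2 fold changes of -0.16 and -0.21 with adjusted p = 0.16 and 0.096.

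Among the 7 genes of membrane supply, 1 was called higher and 1 lower. *WIPI1*, which binds the lipid made by the kinase, had 26.6, 28.0 and 28.3 CPM in GFP against 40.98, 50.2 and 53.6 CPM in Flag-ERRg libraries. All 3 Flag-ERRg values lay above all GFP values, and the log2 fold change was 0.80 (SE 0.11, adjusted p = 0.00029). Its value was 0.58 after correction for GC content and length, 0.47 with library size only and 0.45 with the covariate, all under the cutoff, and 28.1% of its exon bases overlap genes on the opposite strand. *ATG2B*, a lipid-transfer protein that bridges the endoplasmic reticulum and the growing membrane, fell from 85.2, 73.5 and 74.3 CPM to 41.5, 36.8 and 34.5 CPM. The gene lies at chr14:96279195-96363341 on the minus strand. This was a 2.07-fold difference, or -1.05 on the log2 scale (SE 0.11, adjusted p = 5.7e-05), and it was called in the same 16 fits. Its paralog *ATG2A* had 15.6, 16.2 and 16.5 CPM in GFP and 18.8, 21.8 and 26.8 CPM in Flag-ERRg libraries, a log2 fold change of 0.48 (SE 0.13, adjusted p = 0.012) that stayed under the fold cutoff and turned to -0.077 after correction for GC content and length. The remaining 4 genes were not called. *ATG9A*, the lipid scramblase of the vesicles, had a log2 fold change of 0.52 (SE 0.12, adjusted p = 0.0038), and 38.8% of its exon bases are shared with another gene on the same strand. *WDR45B* (WIPI3) had 0.57 (SE 0.11, adjusted p = 0.0020), just under 1.5-fold. *WDR45* (WIPI4) and *WIPI2*, which recruits the conjugation machinery, had 0.38 and -0.09 with adjusted p = 0.066 and 0.60.

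**Figure D2:**
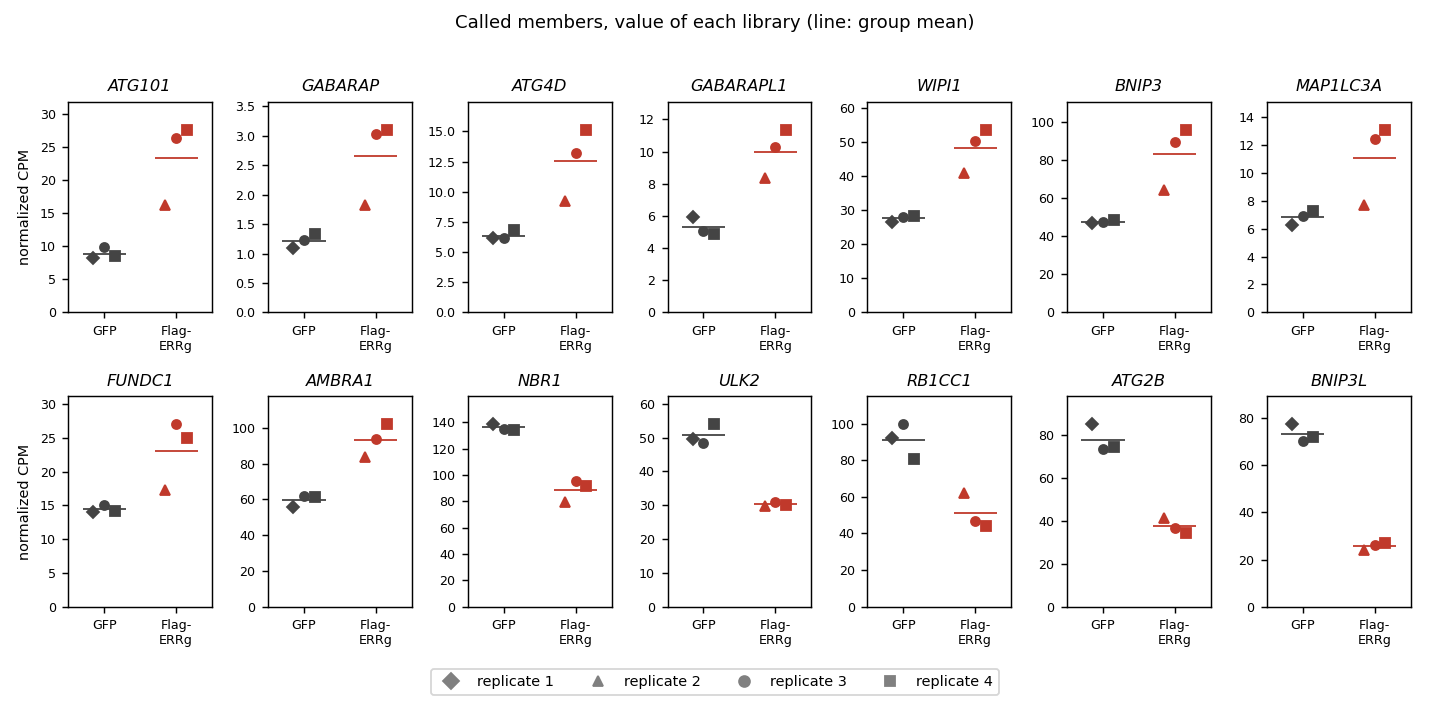
Normalized CPM (vertical axes, each from 0) of the 14 called autophagy genes in each library, GFP in grey and Flag-ERRg in red, with a line at each group mean. Marker shape gives the replicate number. In each panel the groups are apart, and in the 9 genes called higher Flag-ERRg replicate 2 (triangle) is the lowest of its group.

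In the conjugation group, none of the 5 tested genes was called at the reported cutoff. *ATG3*, the conjugating enzyme for ATG8 proteins, had 32.7, 36.7 and 34.8 CPM in GFP and 41.5, 45.7 and 44.1 CPM in Flag-ERRg libraries. The log2 fold change of 0.33 (SE 0.09) had an adjusted p of 0.013 and was under the fold cutoff. *ATG7* (the activating enzyme), *ATG10* (the conjugating enzyme for ATG12), *ATG12* and *ATG5* had log2 fold changes from -0.22 to 0.10, with adjusted p from 0.088 to 0.43. *ATG16L1*, which completes the ligase with the ATG12-ATG5 conjugate, could not be compared. A zero in all libraries need not mean that the gene was silent. *VPS11*, a subunit of the tethering complex on lysosomes, had 1 count in all, and *PLEKHM1* and *SMCR8* were also at 0. For *PLEKHM1*, 94.2% of its 31-base words also lie on alternate contigs of GRCh38, and for *CHGA* 90.2%, but for *ATG16L1*, *TH* and *VPS11* the share was 0%.

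The ATG4 proteases trim newly made ATG8 proteins and release them from membranes. *ATG4D* was called higher, at 6.16, 6.13 and 6.79 CPM in GFP and 9.19, 13.2 and 15.2 CPM in Flag-ERRg libraries. Its counts were 174 to 225 and 246 to 517 reads. The difference of 0.98 on the log2 scale (SE 0.18, adjusted p = 0.0012) was under the cutoff after correction for GC content and length (0.42) and with the covariate (0.32), and 14.7% of its exon bases overlap *KRI1* on the opposite strand. *ATG4B*, the most active of the proteases, had 37.0 to 38.4 CPM in GFP and 42.9 to 54.3 CPM in Flag-ERRg libraries, a log2 fold change of 0.42 (SE 0.11, adjusted p = 0.0091) that turned to -0.11 after that correction. *ATG4A* and *ATG4C* had log2 fold changes of 0.23 and -0.23 with adjusted p = 0.21 and 0.098.

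Of the 5 *ATG8* family genes, 3 were called higher and none lower, with a median log2 fold change of 0.70. Against 25.9% of protein-coding genes called higher, this count rests on few genes, and *GABARAP* and *MAP1LC3A* have the limits given below. *GABARAPL1* had 5.95, 5.04 and 4.89 CPM in GFP and 8.33, 10.3 and 11.4 CPM in Flag-ERRg libraries. The groups were apart in all libraries, and the log2 fold change of 0.92 (SE 0.15, adjusted p = 0.00077) stayed past the cutoff after correction for GC content and length (0.74) and with library size only (0.59), but not with the covariate (0.54). *GABARAP* had 1.10, 1.23 and 1.33 CPM against 1.83, 3.03 and 3.11 CPM, from 31 to 44 and 49 to 106 reads. Its log2 fold change of 1.13 (SE 0.25, adjusted p = 0.0036) rests on these low counts and was 0.35 (adjusted p = 0.55) with the covariate, and 48.2% of its exon bases overlap other genes, 35.4% on the same strand. Reads over those bases may have been left out as ambiguous, so its level is uncertain. *MAP1LC3A*, which encodes LC3A, had 6.27, 6.91 and 7.27 CPM in GFP and 7.66, 12.4 and 13.1 CPM in Flag-ERRg libraries. Flag-ERRg replicate 2 stood close to the GFP libraries, and the log2 fold change was 0.70 (SE 0.19, adjusted p = 0.011). This call was the least stable. It did not hold without GFP replicate 1 (adjusted p = 0.051), without Flag-ERRg replicate 3 (adjusted p = 0.055) or without Flag-ERRg replicate 4 (0.57 on the log2 scale), and the log2 value was 0.56 with protein-coding genes only, 0.36 with library size only, 0.30 after correction for GC content and length and -0.072 with the covariate. *GABARAPL2* had 51.3 to 56.9 CPM in GFP and 56.3, 82.3 and 87.8 CPM in Flag-ERRg libraries. Its groups overlapped, and 0.47 on the log2 scale (SE 0.15, adjusted p = 0.025) was under the fold cutoff. *MAP1LC3B*, whose product LC3B is the usual marker of autophagosomes, had 96.4 to 98.2 CPM in GFP and 75.9, 105 and 107 CPM in Flag-ERRg libraries, a log2 fold change of -0.02 (SE 0.13, adjusted p = 0.92). Of its words of 31 bases, 20.9% occur elsewhere in the genome.

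Soluble cargo receptors bind ubiquitinated cargo and ATG8 proteins at once, and 1 of the 5 was called lower. *NBR1* stood at 139, 135 and 134 CPM in GFP and 79.5, 95.2 and 91.7 CPM in Flag-ERRg libraries. The highest Flag-ERRg value lay below the lowest GFP value, and the log2 fold change was -0.61 (SE 0.10, adjusted p = 0.00059). Without Flag-ERRg replicate 2, which had the lowest value, it was -0.43 and not called, and it was -0.53 and not called with DESeq2. The call was lost too with RLE size factors and with the replicate block, both without and with correction for GC content and length. *CALCOCO2*, which encodes NDP52, had 61.4 to 62.0 CPM in GFP and 37.7, 42.1 and 47.0 CPM in Flag-ERRg libraries. Its log2 fold change of -0.54 (SE 0.10, adjusted p = 0.0014) was just under 1.5-fold, and it was called lower without Flag-ERRg replicate 4. *SQSTM1*, which encodes p62, had 6.30, 5.49 and 5.76 CPM in GFP and 5.04, 6.11 and 5.66 CPM in Flag-ERRg libraries. These overlapped, and the log2 fold change was -0.06 (SE 0.14, adjusted p = 0.75). *OPTN* and *TAX1BP1* had log2 fold changes of 0.13 and -0.08 with adjusted p = 0.32 and 0.51.

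All 3 mitophagy receptors were called, 2 higher and 1 lower, beside 25.9% and 12.4% of protein-coding genes. *BNIP3L* (also NIX), an outer-membrane receptor that removes mitochondria in maturing red cells, had the largest fall of the 40 members, from 77.6, 70.5 and 72.04 CPM to 23.9, 26.3 and 27.2 CPM. The groups were far apart and the change was 2.84-fold, or -1.51 on the log2 scale (SE 0.10, adjusted p = 4.1e-06). It was called in those 16 fits too, with values from -1.83 to -1.26. Its paralog *BNIP3*, a hypoxia-induced receptor, moved the other way, from 46.9, 47.8 and 48.6 CPM to 64.3, 89.6 and 96.2 CPM. That rise, 0.80 on the log2 scale (SE 0.14, adjusted p = 0.00089), was under the cutoff after correction for GC content and length (0.47), with library size only (0.47) and with the covariate (0.26). Of the *BNIP3* words, 22.6% occur elsewhere in the genome. *FUNDC1*, the third receptor, had 14.03, 15.04 and 14.2 CPM in GFP and 17.3, 27.1 and 25.0 CPM in Flag-ERRg libraries, a log2 fold change of 0.68 (SE 0.15, adjusted p = 0.0042). It rose to 1.03 after correction for GC content and length and was not called without Flag-ERRg replicate 3 (0.56), with protein-coding genes only (0.54), with library size only (0.35) or with the covariate (0.09).

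Levels between genes were compared as mean CPM per kb of annotated exon. In GFP libraries the highest was *WDR45B* at 25.0 CPM per kb, followed by *MAP1LC3B* at 19.3, *GABARAPL2* at 18.2 and *BNIP3L* at 17.7 CPM per kb. The lowest tested were *GABARAP* at 0.624, *SQSTM1* at 0.777 and *GABARAPL1* at 1.31 CPM per kb. The exon bases of *GABARAP* and *SQSTM1* overlap other genes over 48.2% and 22.4%, so both levels are uncertain. With Flag-ERRg, *BNIP3L* was at 6.22 CPM per kb, below *BNIP3* at 20.6 and *FUNDC1* at 18.4 CPM per kb, whereas in GFP it stood above both (11.8 and 11.5 CPM per kb). Within the ULK1 complex, *ATG101* moved from 2.79 to 7.33 CPM per kb and *RB1CC1* from 11.9 to 6.72 CPM per kb.

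**Figure D3:**
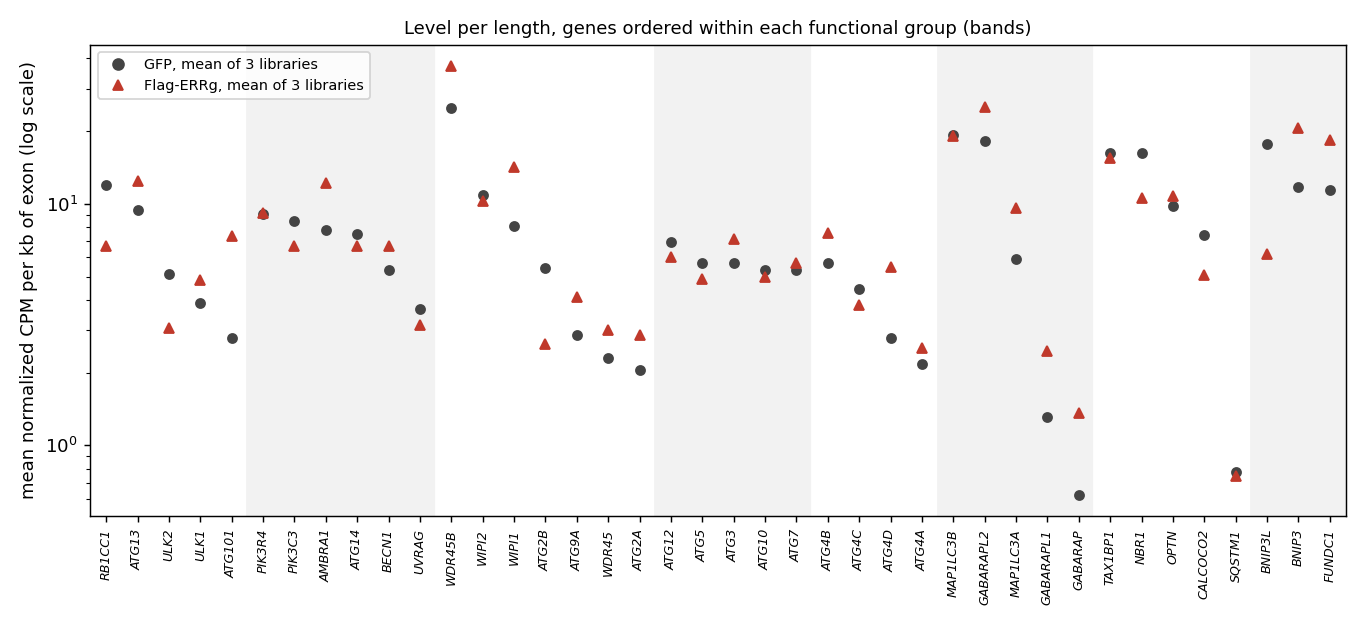
Mean normalized CPM per kb of exon (log axis) of the 40 tested autophagy genes in GFP (grey circles) and Flag-ERRg (red triangles), 3 libraries each, with functional groups in alternating bands. *BNIP3L* lies above *BNIP3* and *FUNDC1* in GFP and below them in Flag-ERRg.

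The direction of change varied with GC content and exon length among the members. The 9 called higher had a median GC content of 51.4% (37.7% to 65.7%) and a median exon length of 3195 bases. The 5 called lower had 42.9% (37.4% to 47.6%) and 8405 bases. Over the 40 members, the Spearman correlation of the log2 fold change was 0.59 with GC content and -0.62 with exon length, and over 13746 protein-coding genes it was 0.40 and -0.26. These points are genes measured in the same 6 libraries and are not independent. When each library was corrected for both properties by smooth curves, 4 members were called higher (*ATG101*, *GABARAP*, *GABARAPL1* and *FUNDC1*) and the same 5 lower, and the median of the members moved from 0.18 to -0.06. Over protein-coding genes that correction gave 16.3% called higher and 14.7% lower, and a median of -0.0049.

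**Figure D4:**
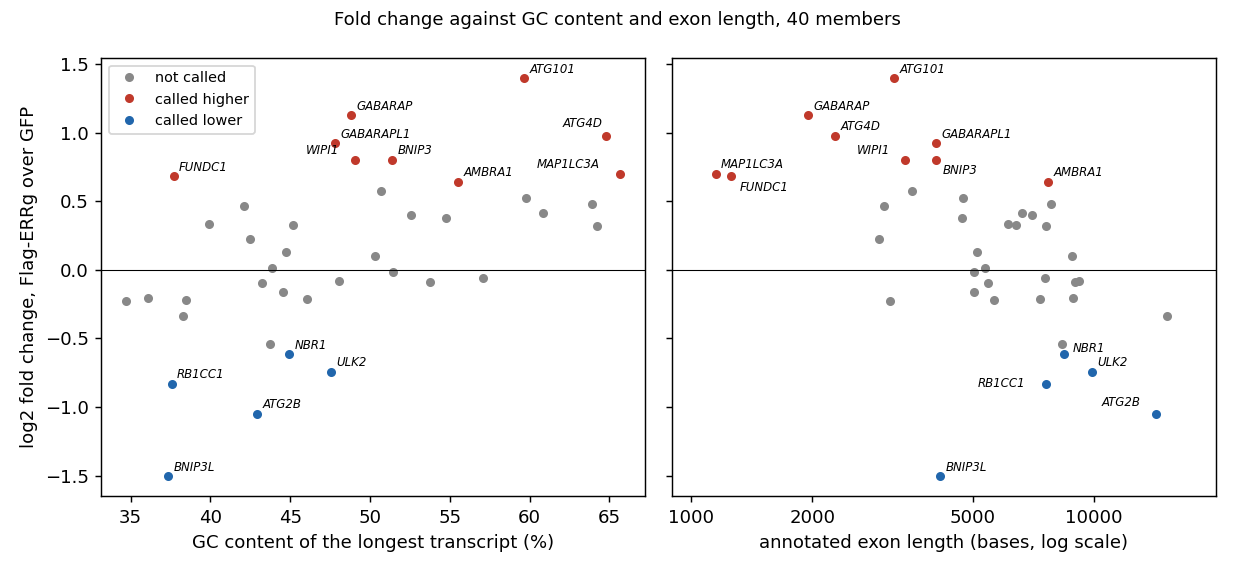
Log2 fold change (Flag-ERRg over GFP) of the 40 tested autophagy genes against GC content of the longest transcript in percent (left) and annotated exon length in bases on a log axis (right). Genes called higher (red) have a median of 51.4% GC and 3195 bases, and genes called lower (blue) 42.9% and 8405 bases.

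**Figure D5:**
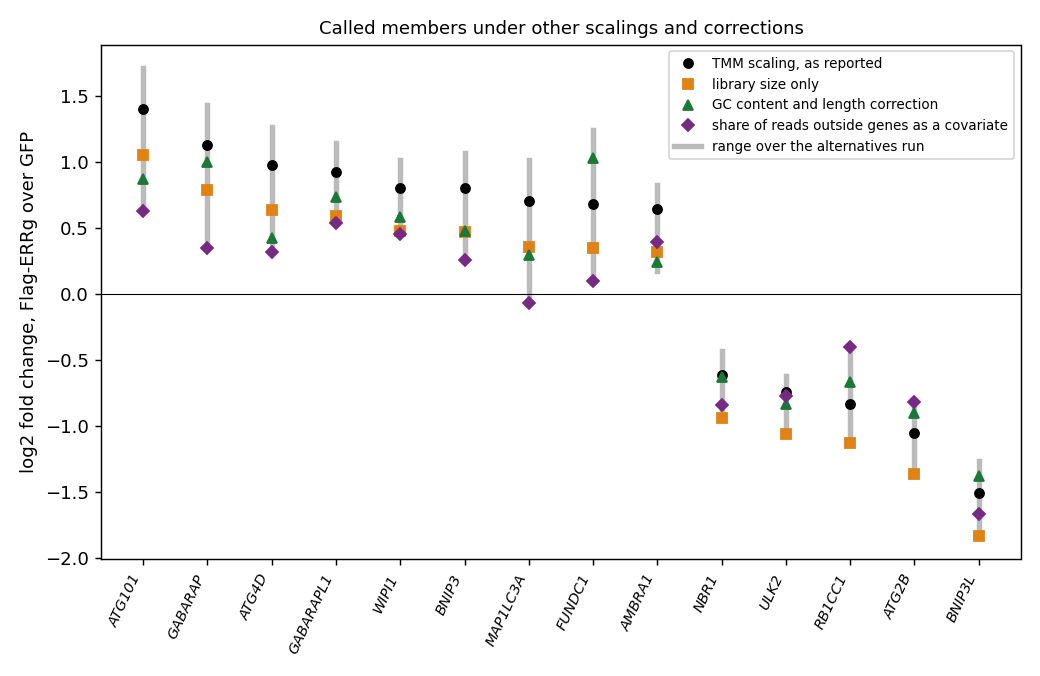
Log2 fold change of the 14 called autophagy genes as reported (black), with scaling by library size only (orange), after correction for GC content and length (green) and with the no-feature share (reads outside genes) as a covariate (purple). Grey bars span the reported fit and the 16 planned fits judged at the reported cutoff. *MAP1LC3A* crosses 0, whereas *ATG101* stays at or above 0.63 and *ATG2B* at or below -0.82.

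Around the machinery, 40 regulators of autophagy were tested, and 14 were called higher and 6 lower, with a median log2 fold change of 0.27. *BCL2L1*, whose product Bcl-xL binds Beclin 1, rose from 23.8, 25.5 and 24.0 CPM to 47.0, 62.0 and 67.6 CPM, a log2 fold change of 1.27 (SE 0.13, adjusted p = 6.5e-05). *PRKAG2*, a subunit of AMP-activated kinase, and *LAMTOR4*, of the lysosomal Ragulator complex, rose by 1.26 and 1.22 on the log2 scale (SE 0.10 and 0.19). *FOXO1* and *FOXO3* encode transcription factors that act on autophagy genes, and both fell. *FOXO1* went from 117, 104 and 116 CPM to 43.9, 41.6 and 47.5 CPM (log2 fold change -1.34, SE 0.10, adjusted p = 9.3e-06), and *FOXO3* from 98.9, 90.0 and 95.3 CPM to 44.1, 45.7 and 45.4 CPM (-1.07, SE 0.09, adjusted p = 1.9e-05). Other transcription factors in the list did not fall. *MITF* and *TFE3* were called higher, by 1.02 and 0.72 on the log2 scale (adjusted p = 0.00012 and 0.00064). *TFEB* and *ZKSCAN3*, at 0.27 and 0.15, were not called (adjusted p = 0.19 for both). *RRAGB*, a Rag GTPase, fell by 0.68 on the log2 scale (SE 0.12). Of 40 genes of autophagosome fusion and further receptors, 37 were tested, and 11 were called higher and 5 lower, with a median of 0.14. The mitochondrial receptors *PHB2* and *FKBP8* rose by 1.25 and 1.07 (SE 0.18 and 0.17) and *VPS18*, of the tethering complex, by 1.23 (SE 0.15). *CCPG1*, a receptor for the endoplasmic reticulum, fell by 0.97 (SE 0.11), *C9orf72* by 0.82 (SE 0.11) and *ATG16L2*, a paralog of *ATG16L1*, by 0.71 (SE 0.13). The counts called higher were 9 and 6 after correction for GC content and length, a fit in which 16.3% of protein-coding genes were called higher. Both lists, like the machinery, had shares called higher near the 25.9% of protein-coding genes or above it (35.0% and 29.7%), and no test of that difference was made.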

How the data were processed

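RNA of 6 libraries of SH-SY5Y cells was measured, 3 infected with Ad CMV GFP and 3 with Ad CMV 3xFlag-*Esrrg*, from rRNA-depleted total RNA with a directional preparation. Groups and replicate numbers come from the labels. The deposited table holds raw counts of reads per gene, which the authors made with HTSeq-count after alignment with STAR. Their processing notes name Trim Galore 0.6.7, STAR 2.7.9a, HTSeq 0.11.3 and GRCh38. The annotation release and strand setting are not given in the sources used here. Reads shared by overlapping genes are counted as ambiguous. The 5 summary entries were left out of library sizes.

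Of 67060 identifiers, 60419 (90.1%) matched GENCODE release 44, and the others held 0.153% of the counts. The test was run with edgeR 4.0.16 in R 4.3.3 (filterByExpr, TMM, quasi-likelihood test, all 24500 tested genes). Standard errors were taken from the F statistic and the log2 fold change. Tables and plots used Python 3.11.15, pandas 2.3.3, numpy 2.4.6 and matplotlib 3.10.9. On simulated counts, edgeR recovered 46 of 47 genes changed by 1 on the log2 scale that had at least 100 counts. Far fewer genes were changed there than were called in these data, equally up and down. No effect of GC content, length or scaling was put in, so the simulation does not cover those limits.

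The members, the lists of regulators and fusion genes and the markers were chosen with earlier results of these data known. Every called member is given in full, and of the other lists up to 3 genes in each direction that were called, had groups that did not overlap and averaged at least 50 counts, taking the largest changes. *VPS11*, *PLEKHM1*, *SMCR8*, *TH* and *CHGA* are named for counts at or near 0, after their values were seen. *MITF*, *TFE3*, *TFEB* and *ZKSCAN3* are named as the further transcription factors among the regulators, also after their values were seen. Some listed markers are not reported here by name. Alternatives were DESeq2 1.42.0, RLE size factors, library size only, other count filters, other fold cutoffs, leaving out each library, protein-coding genes only, the replicate number as a block, smooth curves for GC content and length (mgcv 1.9.3), and the no-feature share as a covariate. Flag-ERRg replicate 2 as the only Flag-ERRg library was added after the data had been seen.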

Additional observations from a re-analysis of the deposited data

How the results depend on the processing

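Members called higher (9 as reported) numbered 7 to 16 with 1 library left out (16 without Flag-ERRg replicate 2). Of protein-coding genes, 22.9% to 34.4% were called higher in those fits, the most also without that replicate. The members were 4 with library size only, 4 after correction for GC content and length and 1 with the covariate. Protein-coding shares there were 13.6%, 16.3% and 9.48%. With no fold cutoff the members were 18, at 2-fold 2, and in a test against a 1.5-fold threshold 4. At these cutoffs 37.6%, 11.3% and 14.1% of protein-coding genes were called higher. Members called lower (5 as reported) were 2 at 2-fold and 2 in the threshold test, and 4 to 6 with a library left out. The shares of protein-coding genes called lower were 4.64%, 4.87% and 10.2% to 11.9%. DESeq2 called 11 members higher and 4 lower, against 28.9% and 9.81% of protein-coding genes. The median of the members (0.18) was 0.13 to 0.39 with a library left out, -0.15 with library size only, -0.062 after correction for GC content and length, -0.054 with that correction and the replicate block, -0.059 with the covariate and -0.019 with replicate 2 alone. Regulators called higher (14) were 9 and fusion genes and receptors (11) were 6 after that correction. Fusion genes and receptors called lower (5) were 3 with DESeq2 and 3 after the correction, and 3 to 6 with a library left out (3 without Flag-ERRg replicate 4). Causes beyond fewer samples or a stricter cutoff were not tested.

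The replicate block called 12 members higher and 4 lower with a median of 0.28. In that fit 28.7% of protein-coding genes were called higher and 14.5% lower, with a median of 0.16. Only numbers 3 and 4 occur in both groups, and the fit leaves 1 residual degree of freedom. The deviations of same-numbered libraries from their group means correlated at 0.075 and -0.0001, and those of GFP 3 and Flag-ERRg 4 at 0.10. Each mean includes a library without a partner, so these values cannot show whether the number marks a pairing.

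Log2 fold changes that turned sign all belonged to genes that were not called, apart from *MAP1LC3A*, which was -0.072 with the covariate. With library size only they were *ULK1* at -0.0049, *ATG4A* at -0.11, *ATG7* at -0.22, *PIK3R4* at -0.31 and *OPTN* at -0.20. After correction for GC content and length they were *ULK1* at -0.23, *ATG2A* at -0.077, *ATG4B* at -0.11, *ATG7* at -0.11, *ATG9A* at -0.010, *PIK3R4* at -0.0073 and *WDR45* at -0.059. With that correction and the replicate block, *ULK1* was at -0.32, *ATG2A* at -0.11, *ATG4B* at -0.11, *ATG7* at -0.14, *ATG9A* at -0.044, *PIK3R4* at -0.013 and *ATG12* at 0.028. With the covariate, *ATG13* was at -0.0059, *ATG4A* at -0.14, *ATG7* at -0.046, *PIK3R4* at -0.042, *WDR45* at -0.22, *GABARAPL2* at -0.15 and *OPTN* at -0.20. With protein-coding genes only, *ATG7* was at -0.034, *PIK3R4* at -0.12 and *OPTN* at -0.0070, and with at least 10 counts in every library *PIK3R4* was at -0.016. *MAP1LC3B* was at 0.065 with DESeq2, 0.065 with RLE size factors and 0.12 with the replicate block, and *SQSTM1* at 0.022, 0.022 and 0.064. *WIPI2* was at 0.0017 with the block. With a library left out, the ranges that crossed 0 were -0.13 to 0.0089 for *ATG10*, -0.0054 to 0.14 for *PIK3R4*, -0.17 to 0.15 for *WIPI2*, -0.092 to 0.23 for *MAP1LC3B*, -0.12 to 0.12 for *SQSTM1* and -0.12 to 0.012 for *TAX1BP1*. Of the values per gene, 556 kept direction and side of the cutoff, 35 (10 genes) kept direction but lost the call, 21 (9 genes) gained one and 44 (18 genes) turned sign. Depth limits *GABARAP* most, with 31 to 106 reads per library.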
